A study of Rattus norvegicus with 8 samples.

Results

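The miR-200 family was examined in small RNA sequencing counts from the striatum, a forebrain region that governs movement and reward. The members are the 9 mature miRNAs rno-miR-200a-3p, rno-miR-200a-5p, rno-miR-200b-3p, rno-miR-200b-5p, rno-miR-429, rno-miR-200c-3p, rno-miR-200c-5p, rno-miR-141-3p and rno-miR-141-5p, out of 752 mature miRNAs in the count table. They were taken by name as 1 family. The family was chosen by its difference between methamphetamine (METH) and saline in an earlier look at these same libraries, so the METH against saline values of the members are given as a description, with no p for any member. What was not compared in that choice, namely the levels of the 2 loci, the 2 seed classes and the 2 arms inside each library, was tested over all rats. Both groups entered these tests, so the ratios are not wholly free of that choice.

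Small RNA came from wild-type male Sprague-Dawley rats, 4 that self-administered METH in saline and 4 that self-administered saline alone, with 1 library per rat. In self-administration a rat presses a lever for an intravenous infusion. Both groups had the same food training and jugular catheter surgery. The authors chose 4 rats per group with a stable lever response in the last sessions for plasma sampling. They began with more METH rats than saline rats, so this choice kept a smaller part of the METH rats. Whether the sequenced rats are those chosen is not stated. Age was not given in the sources used here. Rats are numbered 1 to 4 within each group as in the sample labels.

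MiRNAs of the miR-200 family are known as keepers of the epithelial state, because they repress the ZEB transcription factors that switch epithelial cells towards a mesenchymal form. In the nervous system they are known for their part in olfactory neurogenesis, and outside the olfactory system the adult brain holds little of them. The family is transcribed from 2 loci. Mir200b, Mir200a and Mir429 lie together on 1 chromosome of the rat assembly GRCr8, within the span of Ttll10, a tubulin tyrosine ligase-like gene, and are called the Mir200b-Mir429 locus here. Mir200c and Mir141 lie together on another chromosome, between Phb2, which encodes a prohibitin, and Ptpn6, which encodes a phosphatase, and are called the Mir200c-Mir141 locus. The reads had been aligned to rn6, so no coordinates are given. Each hairpin precursor gives a 5p and a 3p arm, of which the 3p arm is known as the guide strand of this family. The guide strand is loaded into Argonaute and finds its targets with its seed, bases 2 to 8, whereas the other arm, the passenger strand, is mostly degraded.

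The sequences below show the seeds that divide the family. They are from the RefSeq table of GRCr8, which matched 6 of the 9 members, with the seed in capitals.
rno-miR-200c-3p: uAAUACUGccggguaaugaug
rno-miR-141-3p: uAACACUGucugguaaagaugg
rno-miR-200a-5p: cAUCUUACcggacagugcugg
rno-miR-200b-5p: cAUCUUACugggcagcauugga
rno-miR-200c-5p: cGUCUUACccagcaguguuug
rno-miR-141-5p: uCCAUCUUccagugcaguguug

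The 3p arms of the Mir200c-Mir141 locus stand for both seed classes. Counted from 1 at the 5′ end, miR-200c-3p and miR-141-3p differ within the seed by the single substitution U4C. Outside the seed they differ by C9U, G11U and U17A over the 21 positions compared. By the usual classification, miR-200b-3p and miR-429 share the seed of miR-200c-3p, and miR-200a-3p shares that of miR-141-3p, so each locus holds both classes. Among the 5p arms, miR-200a-5p and miR-200b-5p had the same seed, and miR-200c-5p differed from miR-200a-5p in the seed by A2G only. Compared position by position, the seed of miR-141-5p differed from that of miR-200a-5p at 6 of 7 positions. It nevertheless holds the run AUCUU of that seed, placed further from the 5′ end. Related members differ by few bases, so reads with an error or a trimmed end could have been counted for a relative.

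Total counts ranged from 12929302 to 27632443 per library. Levels are given as CPM, the count scaled to a common library total after each total was corrected with the TMM (trimmed mean of M-values) factor of edgeR. The neuron markers miR-124-3p, miR-9a-5p and miR-128-3p were abundant in every library, and the summed neuron list held from 278805 to 483539 CPM in saline rats and from 314753 to 467665 CPM in METH rats. METH rat 4 had the lowest miR-124-3p of all rats, 97752 CPM against 127824 to 342449 CPM, and the highest miR-9a-5p, 204524 CPM against 82989 to 115872 CPM. This library also stood apart from the others, at -21.5 on the first principal component against -2.83 to 7.29. Several marker lists of other tissues had their highest sum in it. Its summed pituitary markers, 3 of 3 in the table, reached 73840 CPM against 15994 to 37097 CPM in the other rats. Its choroid plexus and ependyma markers, 5 of 5, reached 7132 CPM against at most 3580 CPM, of which miR-204-5p made up 6901 CPM. Of these 5, miR-34b-5p and miR-34c-5p were instead lowest in METH rat 4, at 8.65 and 18.9 CPM against 9.28 to 33.1 and 24.5 to 66.0 CPM in saline rats. Its erythrocyte markers, 3 of 4, reached 2817 CPM against at most 648 CPM. Nearly all of that was miR-451-5p, 2807 CPM, and miR-144-5p was inside its saline range. Its oligodendrocyte sum was also the highest, 4492 CPM against at most 4052 CPM, although miR-219a-5p and miR-338-3p were lowest in it. By contrast its leukocyte sum, 693 CPM, was the lowest of all rats. Because these are bulk samples, fewer cells of a type and less RNA per cell cannot be told apart.

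The family as a whole was scarce in saline rats and very uneven among METH rats. The summed level of the 9 members was 20.1, 12.2, 36.4 and 33.5 CPM in saline rats 1 to 4, and 69.6, 310, 1608 and 22.9 CPM in METH rats 1 to 4. METH rats 1, 2 and 3 lay above every saline rat, whereas METH rat 4 lay inside the saline range. Saline rats averaged 25.6 ± 11.4 CPM (SD, n = 4). METH rats averaged 502.5 ± 748 CPM (SD, n = 4), with a spread above their own mean. METH rat 3 alone held 84.1% of the family counts of the METH group. The METH mean was 19.7-fold the saline mean, and 5.24-fold without METH rat 3. As a share of all counts in a library, the family averaged 0.00261% over the saline rats and 0.0488% over the METH rats.

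**Figure D1:**
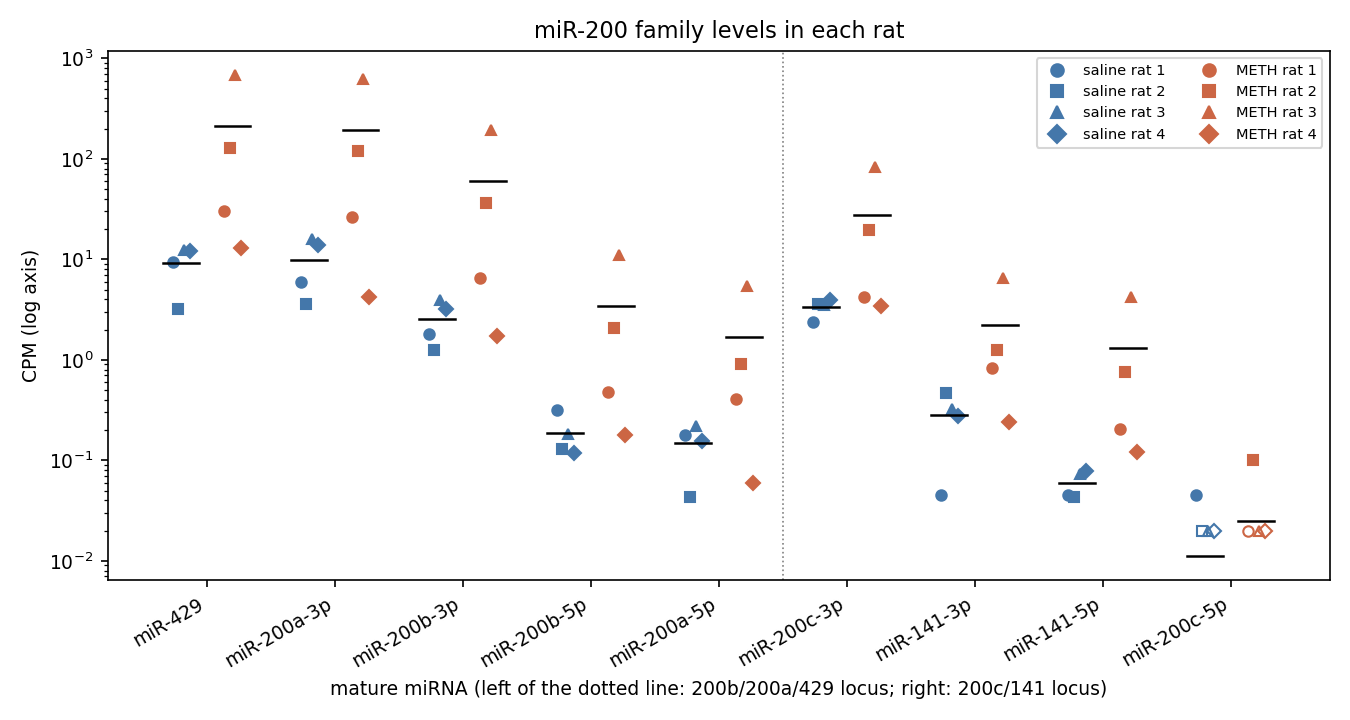
CPM of each member in each rat on a log axis, with saline rats to the left and METH rats to the right of each name, a bar for the group mean, and open symbols at the bottom for a count of 0. METH rat 3 is the highest point for 8 of the 9 members, and METH rat 4 lies within or close to the saline points.

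In the Mir200b-Mir429 locus, miR-429 and miR-200a-3p were the abundant members. Their saline means were 9.22 ± 4.23 and 9.78 ± 5.96 CPM (SD, n = 4), a difference within the spread, and over all rats the mean of miR-429 was the higher. The level of miR-429 was 9.41, 3.18, 12.3 and 12.0 CPM in saline rats 1 to 4 and 30.4, 128, 686 and 12.97 CPM in METH rats 1 to 4. In CPM all 4 METH rats were above every saline rat, although METH rat 4 exceeded the highest saline rat only slightly. That order rests on the TMM factors. By library totals METH rat 4, with 216 of 21740305 counts, was below saline rat 3, with 337 of 27632443. Over all 507 miRNAs that passed the low-count filter, 9 had every METH rat above every saline rat in CPM (1.78%). Among the 5 members that passed there was 1, namely miR-429.

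The partner miR-200a-3p had 5.92, 3.56, 15.9 and 13.8 CPM in saline rats 1 to 4 and 26.5, 120, 618 and 4.203 CPM in METH rats 1 to 4. Here METH rat 4 fell between the lowest saline rats, so the groups overlapped. The least abundant guide strand of this locus, miR-200b-3p, had 1.79, 1.24, 3.90 and 3.21 CPM in saline rats 1 to 4 and 6.59, 36.7, 193 and 1.74 CPM in METH rats 1 to 4. The groups again overlapped through METH rat 4 alone.

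In the Mir200c-Mir141 locus, the guide strand miR-200c-3p had 2.38, 3.56, 3.54 and 3.91 CPM in saline rats 1 to 4 and 4.19, 19.5, 83.4 and 3.42 CPM in METH rats 1 to 4. The saline rats were closer together than for the other locus, at 3.35 ± 0.669 CPM (SD, n = 4). METH rat 1 was above the highest saline rat by a small margin, and METH rat 4 was inside the saline range. Its neighbour miR-141-3p was rare, with counts of 1, 11, 9 and 7 in saline rats 1 to 4 and 12, 25, 162 and 4 in METH rats 1 to 4. Counts this small leave its level imprecise in every rat but METH rats 2 and 3.

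Fold changes of the guide strands were taken from the quasi-likelihood fit of edgeR over all 507 miRNAs. The log2 fold change of METH over saline was 4.54 ± 1.15 (SE) for miR-429. It was 4.30 ± 1.27 (SE) for miR-200a-3p and 4.55 ± 1.25 (SE) for miR-200b-3p. The Mir200c-Mir141 locus had lower values, 3.05 ± 0.92 (SE) for miR-200c-3p and 2.98 ± 0.94 (SE) for miR-141-3p. Across all miRNAs tested the median was -0.02. At an adjusted p under 0.05, the edgeR quasi-likelihood test called 0 of 507 miRNAs (0%). At an unadjusted p under 0.05 there were 28 of 507 miRNAs. Over the whole table, the edgeR exact test called 6 miRNAs and the DESeq2 Wald test called 8. Members were chosen on this contrast, so nothing about them is read from these calls. Without METH rat 3 the log2 fold changes of the 5 members lay between 1.41 and 2.60, and without METH rat 4 between 3.35 and 4.93.

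The fold over saline was set beside the locus in each METH rat. In METH rat 3, the level was 74.4-fold the saline mean for miR-429. It was 63.2-fold for miR-200a-3p and 76.2-fold for its neighbour miR-200b-3p. In the same rat it was 24.9-fold for miR-200c-3p and 23.4-fold for miR-141-3p. The summed Mir200b-Mir429 locus was at 2.94-fold, 13.2-fold, 69.2-fold and 0.876-fold of the saline mean in METH rats 1 to 4, whereas the summed Mir200c-Mir141 locus was at 1.41-fold, 5.85-fold, 25.5-fold and 1.02-fold. In METH rats 2 and 3 the guide strands of 1 locus thus lay near each other and apart from those of the other locus. In METH rat 1 they did not separate, since miR-141-3p was at 2.95-fold, on 12 counts, beside 2.60-fold to 3.29-fold for the first locus. Of the passenger strands in METH rat 3, miR-200b-5p was at 59.8-fold, near the guide strands of its locus, whereas miR-141-5p was at 70.3-fold on a saline mean of 6 counts in all, and miR-200a-5p was at 36.2-fold on 15, both apart from theirs. The locus difference belongs to the contrast by which the family was chosen, and it was not tested.

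The make-up of the Mir200b-Mir429 locus was alike in METH rats 1, 2 and 3 while its level varied, and it differed more among the other rats. Of the 3p counts of this locus, miR-429 took 47.8%, 44.9% and 45.8% in METH rats 1, 2 and 3, over summed levels of 64.4, 288 and 1514 CPM. The share of miR-200a-3p was 41.8%, 42.2% and 41.3% in these rats, and that of miR-200b-3p was 10.4%, 12.9% and 12.9%. In saline rats, miR-429 took from 38.3% (95% exact binomial interval 35.1 to 41.6%) to 55.0% (49.8 to 60.0%), miR-200a-3p from 34.6% to 49.5% and miR-200b-3p from 10.5% to 15.6%. The values of METH rats 1, 2 and 3 therefore fell inside or next to the saline ranges for each of the 3 members.

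METH rat 4 had another make-up. In this rat miR-429 took 68.6% of 315 counts (95% exact binomial interval 63.1 to 73.7%), above the intervals of the 7 other rats, which ended at 60.0% or lower. Conversely, miR-200a-3p took 22.2% (17.8 to 27.2%), below the intervals of the others, which began at 29.8% or higher. The share of miR-200b-3p was 9.21% (6.25 to 12.95%), which overlapped the intervals of the other rats. Intervals here and below cover counting error only. METH rat 4 is the library with the high sums of pituitary, choroid plexus and erythrocyte markers, though not every marker was high. The part of these tissues in its make-up was not tested.

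**Figure D2:**
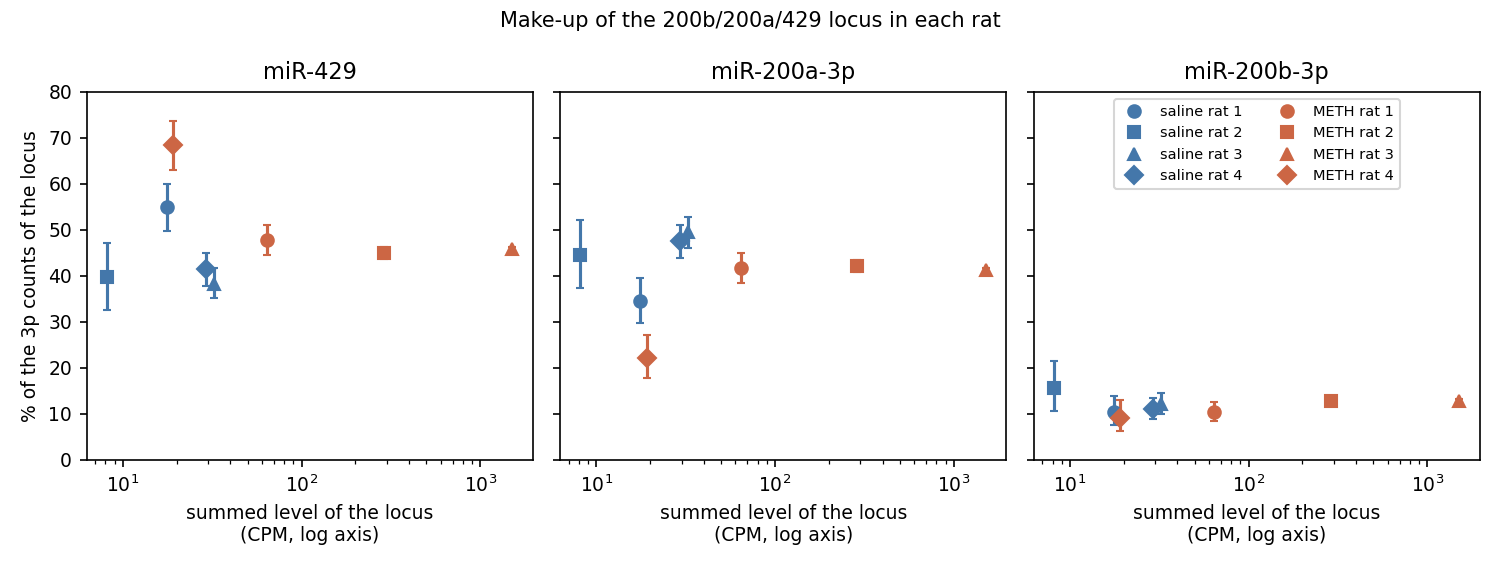
Share of miR-429, miR-200a-3p and miR-200b-3p in the 3p counts of their locus (%), against the summed level of the locus in the same rat (CPM, log axis), with 95% exact binomial intervals. From 64.4 to 1514 CPM the shares of miR-429 stay between 44.9% and 47.8%, and METH rat 4 is alone at 68.6%.

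The 2 loci were next compared inside each library, where a ratio of counts needs no scaling between libraries. Counts of the Mir200b-Mir429 locus exceeded those of the Mir200c-Mir141 locus in 8 of 8 rats. The ratio was 7.02, 2.00, 8.24 and 6.86 in saline rats 1 to 4 and 12.3, 13.3, 16.1 and 5.06 in METH rats 1 to 4. The mean log2 ratio was 2.92 ± 0.957 (SD, n = 8; two-sided exact permutation test over all 256 sign assignments, p = 0.00781, the smallest it allows, and 0.00938 adjusted over 6 ratios). Saline rat 2 was the lowest, with 190 counts from the first locus and 95 from the second. Its Mir200c-Mir141 level, 4.08 CPM, was within the range of the other saline rats, whereas its Mir200b-Mir429 level, 8.15 CPM, was the lowest of all rats. METH rats 1, 2 and 3 lay above every saline rat and METH rat 4 did not, and this group difference was not tested. The mean log2 ratio was 2.41 in saline rats and 3.43 in METH rats, so the METH rats raise the mean over all rats. The first locus is the sum of 3 precursors and the second of 2. With each member weighed the same, the mean log2 ratio was 3.15 and also positive at the smallest p.

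Seed classes were compared in the same way over the 3p arms. The class of miR-200b-3p, miR-200c-3p and miR-429 exceeded the class of miR-200a-3p and miR-141-3p in 8 of 8 rats. The ratio was 2.28, 1.98, 1.22 and 1.36 in saline rats 1 to 4 and 1.51, 1.52, 1.54 and 4.08 in METH rats 1 to 4. The mean log2 ratio was 0.84 ± 0.559 (SD, n = 8; two-sided exact permutation test, p = 0.00781, and 0.00938 adjusted over 6 ratios). METH rats 1, 2 and 3 agreed closely and lay inside the saline range, although the family level differed 23.1-fold between METH rats 1 and 3. METH rat 4 was the highest of all rats. Without it, the mean log2 ratio was 0.67. The first class sums 3 members and the second 2, and with each member weighed the same the mean log2 ratio was 1.58. Adapter ligation favours some small RNA sequences over others, which was not corrected, so ratios between different miRNAs also carry that preference.

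**Figure D3:**
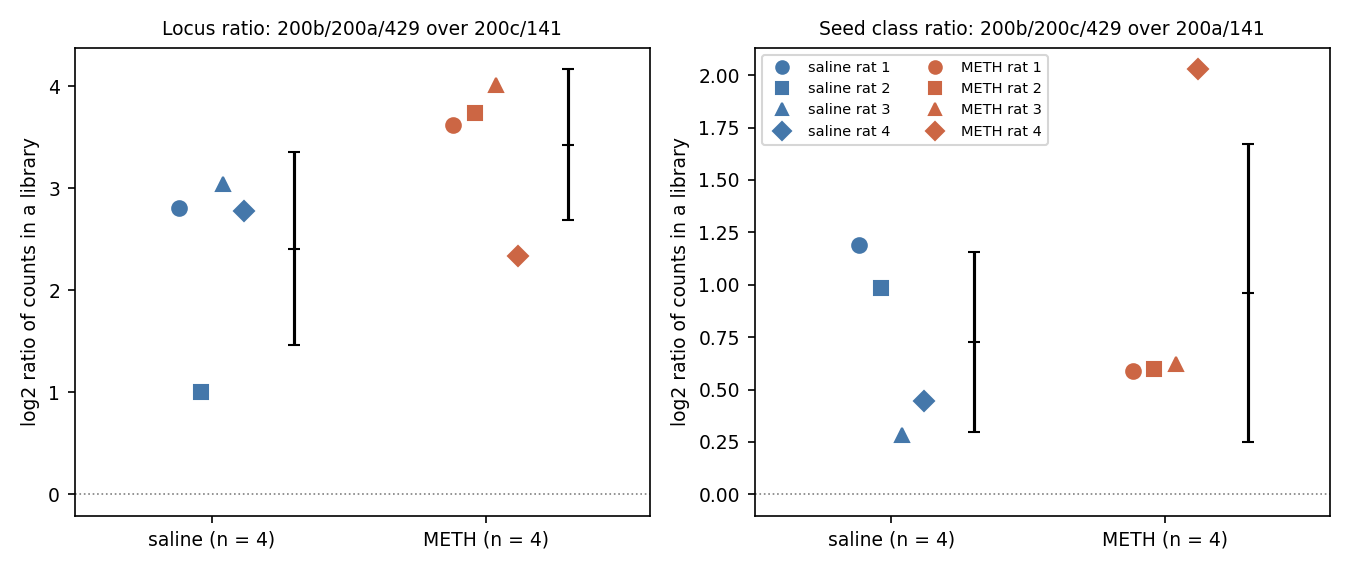
Log2 ratio of counts inside each library for the 2 loci (left) and the 2 seed classes (right), with the mean and SD of each group (n = 4) in black and a dotted line at equal counts. All 8 rats lie above the line in both panels, saline rat 2 is the lowest locus ratio and METH rat 4 the highest seed class ratio.

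The arms of each precursor were then compared. The 4 passenger strands were all too rare to pass the low-count filter, so they have no fold change from the fit. The 5p arm of Mir200a had counts of 4, 1, 6 and 4 in saline rats 1 to 4 and 6, 18, 134 and 1 in METH rats 1 to 4. The 5p arm of Mir200b had 7, 3, 5 and 3 in saline rats 1 to 4 and 7, 41, 275 and 3 in METH rats 1 to 4. Both were high in the METH rats whose guide strands were high, rats 2 and 3. The mean CPM of the METH group was 11.4-fold the saline mean for miR-200a-5p and 18.6-fold for miR-200b-5p, against 19.7-fold and 23.5-fold for their guide strands. Without METH rat 3 these were 3.08-fold and 4.89-fold, against 5.15-fold and 5.92-fold. The saline means of the 5p arms rest on 15 and 18 counts.

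The passenger share differed between precursors of the same locus. Summed over all rats, the 5p arm was 0.8996% of 19341 counts for Mir200a (95% exact binomial interval 0.771 to 1.04%) and 5.51% of 6244 counts for Mir200b (4.96 to 6.10%). In the other locus the 5p arm was 36.0% of 361 counts for Mir141 (31.1 to 41.2%), but 0.103% of 2908 counts for Mir200c (0.0213 to 0.301%). Mir200c and Mir141, which are neighbours, thus lay at the ends of the range. These sums weigh METH rat 3 most. Without that rat, the share in the METH group was 0.871% for Mir200a, 5.64% for Mir200b, 32.8% for Mir141 and 0.394% for Mir200c. Summed over saline rats it was 1.47% (0.828 to 2.42%), 6.52%, 17.6% and 0.299% in the same order, on 15, 18, 6 and 1 counts of the 5p arm.

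The passenger strand miR-141-5p had counts of 1, 1, 2 and 2 in saline rats 1 to 4 and 3, 15, 104 and 2 in METH rats 1 to 4. On the CPM scale all 4 METH rats were above every saline rat, but METH rat 4 by a level that rests on 2 counts. The passenger strand miR-200c-5p was counted 3 times in all, once in saline rat 1 and 2 times in METH rat 2. In METH rat 3, with 2066 counts of miR-200c-3p, its count was 0, which allows a 5p share of up to 0.145% by the limit of 3 counts, or 0.178% by the upper end of the exact binomial interval.

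Within each rat, the guide strand exceeded the passenger strand in 8 of 8 rats for Mir200a, Mir200b and Mir200c. After adding 0.5 to each count, the mean log2 ratio of 3p over 5p was 6.04 ± 0.687 (SD, n = 8) for Mir200a and 3.67 ± 0.740 (SD, n = 8) for Mir200b. For Mir200c it was 7.61 ± 1.95 (SD, n = 8), a value that depends on the number added because the 5p count was mostly 0, and 6.98 without METH rat 3. Each of these had the smallest p of the two-sided exact permutation test (p = 0.00781, and 0.00938 adjusted over 6 ratios). For Mir141 the mean was 1.31 ± 0.935 (SD, n = 8), with 7 of 8 rats above 0 and equal counts in saline rat 1 (exact permutation test, p = 0.0156, also 0.0156 adjusted over 6 ratios). The 5p share of Mir141 was 17.6% of 34 counts in saline rats (6.76 to 34.5%) and 37.9% of 327 counts in METH rats (32.6 to 43.4%), intervals that overlap.

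**Figure D4:**
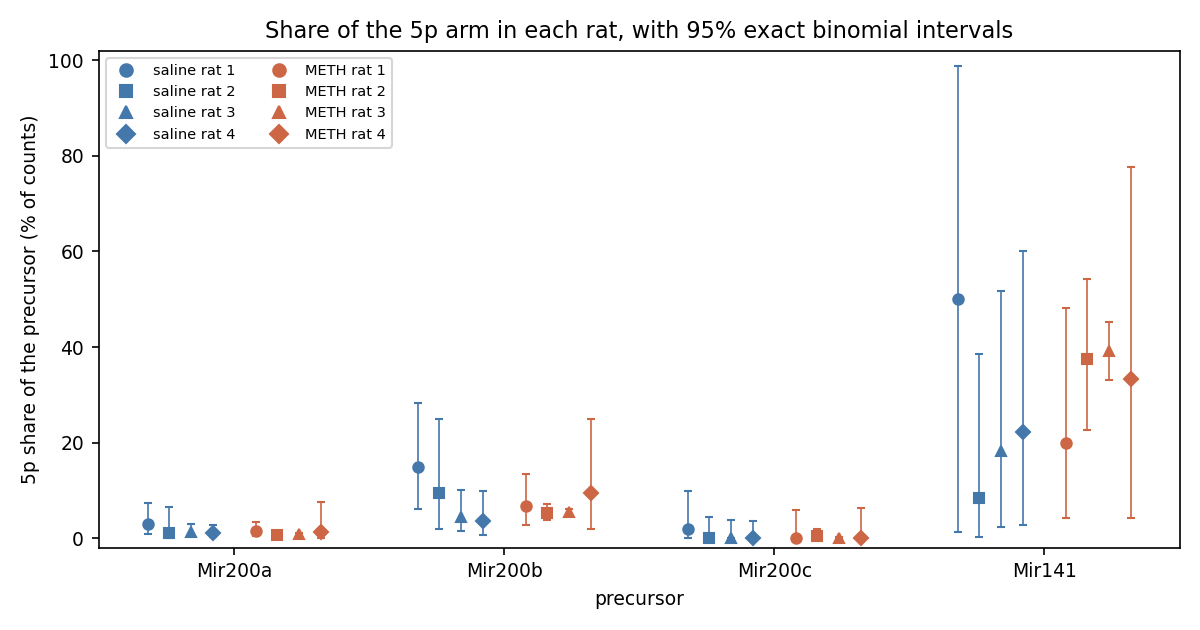
Share of the 5p arm in the counts of each precursor (%) in each rat, with 95% exact binomial intervals. Mir200a and Mir200c lie near 0 in all rats, Mir200b lies between 3.53% and 14.9%, and Mir141 lies between 8.33% and 50.0% with a narrow interval only in METH rat 3.

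Antisense miRNA genes overlap both loci on GRCr8. The hairpin of Mir3548 lies across that of Mir200a, and the hairpin of Mir3575 across that of Mir200c, each on the opposite strand. The mature sequences are shown because they mirror passenger strands printed above.
rno-miR-3548: cAGCACUGuccgguaagaugcc
rno-miR-3575: aCUGCUGGguaagacgag
The reverse complement of miR-3548 shares an unbroken run of 20 bases with miR-200a-5p, and that of miR-3575 shares 16 bases with miR-200c-5p. Over all 8 libraries, miR-3548 had 3 counts, 2 in saline rat 3 and 1 in METH rat 1, against 174 for miR-200a-5p. In METH rat 3, where miR-200a-5p reached 134 counts, miR-3548 had 0. The count of miR-3575 was 0 in every library. The strand setting of the counting is not given in the sources used here.

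Levels within the family were ordered in each library. Over the 8 rats the order of mean log2 level was miR-429, miR-200a-3p, miR-200c-3p, miR-200b-3p, miR-141-3p, miR-200b-5p, miR-200a-5p, miR-141-5p and miR-200c-5p. The step from miR-429 to miR-200a-3p held in 5 of 8 rats, at 0.25 ± 0.637 (SD, n = 8) on the log2 scale, less than its spread. Likewise, miR-200c-3p and miR-200b-3p differed by 0.03 ± 0.938 (SD, n = 8), and the order held in 4 of 8 rats. It held in saline rats 1, 2 and 4 and METH rat 4 and was the opposite in saline rat 3 and METH rats 1, 2 and 3, so the mean near 0 averages opposite orders. The step from miR-200b-3p to miR-141-3p, 3.56 ± 1.24 (SD, n = 8), held in 8 of 8 rats and is the widest. The steps from miR-141-3p to miR-200b-5p, from miR-200b-5p to miR-200a-5p and from miR-200a-5p to miR-141-5p were each within their spread, at 0.11 ± 1.30, 0.62 ± 0.664 and 0.57 ± 0.760 (SD, n = 8).

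Other miRNAs with a profile like that of the family were few. Pearson correlations of log2 CPM with the log2 summed family level over the 8 rats had a median of 0.0113 over the 502 other miRNAs tested, and 3 of them exceeded 0.8. The points share METH rat 3 as an extreme, and the values are descriptions. The 6 most alike were miR-125a-5p (0.858), miR-96-5p (0.827), miR-21-3p (0.825), miR-182 (0.771), miR-27a-3p (0.760) and miR-6329 (0.760). Without METH rat 3 these were 0.683, 0.587, 0.780, 0.5003, 0.398 and 0.929. The first of them moved over a narrow range, from 6067 CPM in saline rat 1 to 8386 CPM in METH rat 3. Of these 6, miR-96-5p and miR-182, both of the miR-183 cluster of sensory organs, had the widest ranges, narrower than that of the family, with 184 and 258 CPM in METH rat 3 against at most 6.67 and 10.1 CPM in saline rats. In METH rat 4, where the family was at 22.9 CPM, miR-96-5p was at 46.0 CPM and miR-182 at 96.1 CPM, far above every saline rat. Their cluster partner miR-183-5p was not among the 6 and was looked up after its values were seen. Its log2 fold change was 4.26 ± 0.85 (SE), against 3.57 ± 0.73 (SE) for miR-96-5p and 3.63 ± 0.75 (SE) for miR-182.

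**Figure D5:**
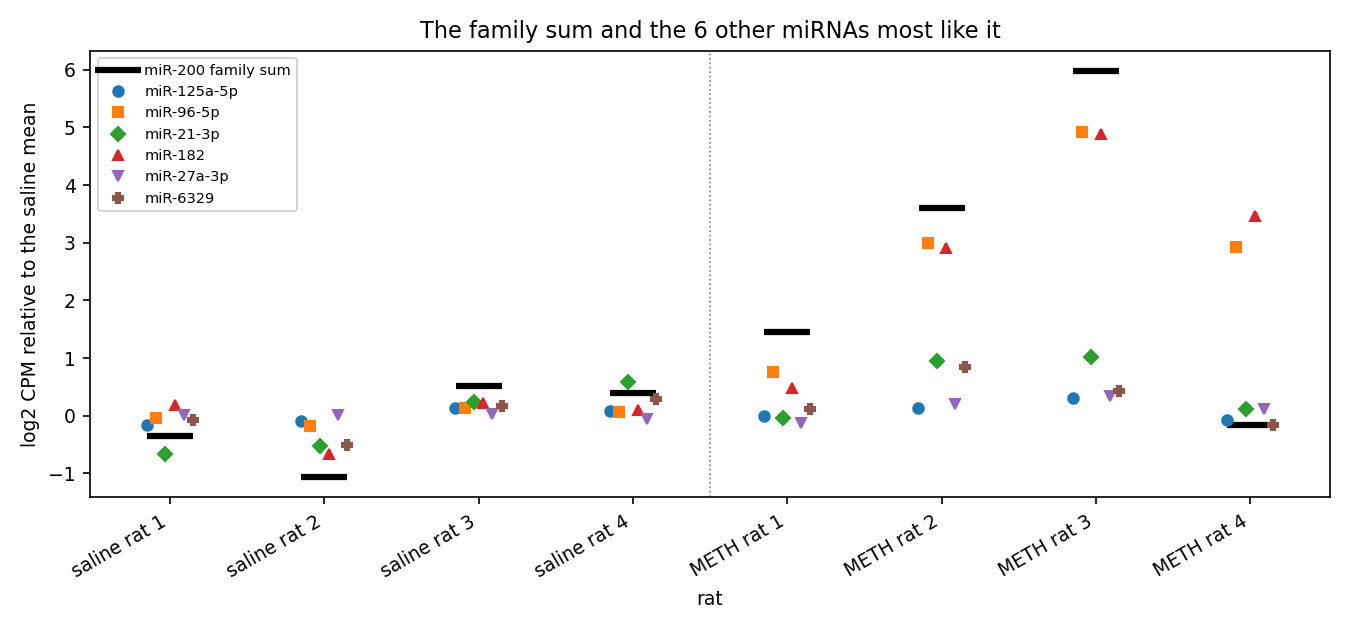
Log2 CPM of the summed family (black bars) and of the 6 other miRNAs most like it (points) in each rat, relative to the mean of the 4 saline rats. In METH rats 1, 2 and 3 miR-96-5p and miR-182 lie above the saline mean together with the family, and in METH rat 4 they are high while the family sits near the saline mean.

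Markers of other tissues were set beside METH rat 3, the rat with the highest family level. Of the other epithelial markers, 5 of 6 were in the table and 0 of these were at 0. Their sum was 471 to 585 CPM in saline rats and 497 to 1059 CPM in METH rats, with 672 CPM in METH rat 3 and the highest value in METH rat 4. The defining epithelial miRNAs miR-203a-3p and miR-205 had 383 and 21 counts in METH rat 3, against 254 to 426 and 10 to 26 counts in saline rats. From the same list, miR-192-5p and miR-194-5p were highest of all rats in METH rat 3, at 190.0 and 295 CPM against 120 to 131 and 122 to 225 CPM in saline rats. The fifth, miR-375-3p, was at 170.2 CPM in METH rat 3, below the saline range of 171 to 242 CPM, and made up 731 CPM of the sum in METH rat 4. In METH rat 3 the pituitary sum was the lowest of all rats, 15994 CPM, and the choroid plexus and ependyma sum, 2912 CPM, was inside the saline range of 2804 to 3580 CPM. The erythrocyte sum was 648 CPM in this rat against 403 to 644 CPM in saline rats. The leukocyte list, 5 of 5 in the table, was at 2067 CPM against 1082 to 2099 CPM. The oligodendrocyte list, 3 of 3, was at 4052 CPM against 2897 to 3191 CPM, of which miR-219a-2-3p made up 2770 CPM. The others, miR-219a-5p at 544 CPM and miR-338-3p at 737 CPM, were inside their saline ranges of 144 to 634 and 310 to 904 CPM. The hindbrain and spinal cord list, 4 of 4, was at 58.6 CPM against 13.7 to 66.8 CPM. METH rat 3 ranked 2 of 8 rats in 6 of the 8 lists, and with METH rat 4 set aside it was the highest rat for the epithelial sum, for the erythrocyte sum through miR-451-5p (646 CPM, against at most 640.1 CPM in saline rats), and for the oligodendrocyte sum through miR-219a-2-3p. The other erythrocyte markers, miR-144-3p and miR-144-5p, were inside their saline ranges in METH rat 3. The family was 62.9-fold the saline mean in this rat, and the part of these tissues in that level was not tested.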

How the data were processed

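Small RNA was size-selected by gel electrophoresis, and the authors built libraries with a kit that carries molecular identifiers. Per the submitters' processing notes, reads were trimmed with Cutadapt 1.18, aligned to rn6 with STAR 2.7.0e and counted with featureCounts of Subread 1.6.4. The authors deposited raw counts per mature miRNA, without normalization. Whether reads were merged by identifier, how multiply aligned reads were treated and the strand setting are not given in the sources used here. If reads were not merged, copies made by PCR are counted more than once.

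MiRNAs were filtered with filterByExpr of edgeR 4.0.16 (minimum count 10), which left 507 of 752, and scaled with TMM factors. METH was compared with saline by the quasi-likelihood test in R 4.3.3, where the model held the group alone, and p was adjusted over the 507 by Benjamini-Hochberg. Each standard error was derived from the F statistic of that test. The fit and the permutation test were also run on simulated data to check the code, and the outcome is not given here. Inside each library, log2 ratios of counts were tested over the 8 rats by an exact permutation of signs, and p was adjusted over 6 ratios. Likeness used log2 CPM with a prior count of 2. Shares have 95% Clopper-Pearson intervals. A count of 0 allows up to 3 counts.

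The text names each member, the antisense neighbours miR-3548 and miR-3575, the 6 tested non-members with the highest Pearson correlation with the summed family, and 8 marker lists. Members and lists were chosen with earlier results of these data known. Pairs of libraries within a group were checked for duplicates. The chi-square per miRNA was at least 398, so no library repeated another, which says nothing about how alike the rats were. Alternatives were 3 other scalings, 2 other filters, DESeq2 1.42.0, the edgeR exact test, the rat number as a block, other weights in the ratios and each library left out. The p-values of the fit weigh a difference against the spread between rats. The permutation p of a ratio takes its smallest value whenever all 8 rats share a sign, whatever their spread, so it shows agreement in sign only. Sequences are from RefSeq on GRCr8.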

Additional observations from a re-analysis of the deposited data

Results flagged for a closer look

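A single rat stood well away from its 3 group mates in 4 of the 34 sets of 4 values inspected, where chance gives about 1 in 20. In the saline group, rat 2 was far below the others in the log2 ratio of the Mir200b-Mir429 locus over the Mir200c-Mir141 locus, at 1.00 against 2.78 to 3.04. In the METH group, rat 4 was far above the others in the log2 seed class ratio, at 2.03 against 0.59 to 0.62. The same rat had the lowest share of miR-200a-3p in its locus, 22.2%, and the highest share of miR-429, 68.6%. These last 3 cases rest on the same counts and are not separate from each other.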

How the results depend on the processing

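The quasi-likelihood test of edgeR called 0 miRNAs with each of the 3 other scalings and both other filters. The DESeq2 Wald test called 8 and the edgeR exact test called 6, a difference whose cause was not tested. Leaving out 1 library, the calls ranged from 0 to 5, and the 5 came without METH rat 1. Counts at an unadjusted p under 0.05 were 25 to 54 with a library left out and 16 to 34 otherwise. The replicate block also gave 0 calls, with lower log2 fold changes for the 5 tested members, from 1.87 for miR-200c-3p to 3.29 for miR-429. Rats of the same number share only that number, and their deviations from the group means correlated at -0.34, -0.15, -0.15 and -0.36. The median over all miRNAs was -0.02 with TMM, -0.12 when scaled by library totals and 0.08 by upper quartiles. The fold changes of the 5 tested members were positive under every alternative that tested them. Without METH rat 3 all 5 were lower, with 2.60 for miR-429, whereas miR-200a-3p was at 2.34 and miR-200b-3p at 2.54. In the other locus miR-141-3p was at 1.44 and miR-200c-3p at 1.41. The log2 ratio of the summed family level was 4.30, 2.82 with medians in place of means, and from 2.39 without METH rat 3 to 4.70 without METH rat 4. The locus, seed class and arm ratios were positive under every alternative run. Where all 8 rats were positive, leaving out any rat must give the smallest p of 7 rats, 0.0156, so that p says nothing about stability. With a rat left out, the mean log2 ratio ranged from 2.76 to 3.19 for the loci and from 0.67 to 0.92 for the seed classes, which became 1.58 with members of equal weight. Depth limits miR-141-3p and the 5p arms most, whose small counts in most rats cannot show differences of moderate size.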
